A study of Mus musculus with 6 samples.

Results

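The genes of protein folding in the endoplasmic reticulum (ER) and of the unfolded protein response were compared between mice on a high cholesterol diet (HCD) and mice on a control diet (CD). The 34 members were taken by gene symbol from a list of named genes, and all 34 had a row among the 21851 genes of the deposited tables. RNA came from sorted bone marrow cells of wild-type, background-matched mice, labelled long-term haematopoietic stem cells (LT-HSCs), with 3 libraries after 3 months of HCD and 3 libraries after 3 months of CD. The study's description gives the gate as lineage-negative, KIT-positive and SCA1-positive cells without CD34 and CD135. The sources used here give no strain or age, and do not tie libraries to animals. The p-values therefore cover the spread among these libraries alone, part or all of which may be technical.

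Proteins bound for the cell surface, the lysosome or secretion enter the ER through the SEC61 channel and are folded there by chaperones, lectins and disulfide isomerases. Chains that fail to fold are moved back to the cytosol and degraded, which is called ER-associated degradation. When unfolded chains build up, the membrane sensors IRE1, ATF6 and PERK release the chaperone BiP. Their signals, carried in part by the transcription factor XBP1, raise transcription of chaperone and degradation genes. Haematopoietic stem cells are known for low protein synthesis and for sensitivity to misfolded protein.

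The values were FPKM (fragments per kilobase of transcript, scaled to library size), so that levels can be compared between genes, and sums per library were 435345 to 462370 in HCD and 427219 to 433052 in CD. Depth, estimated from the step that 1 read makes among low values, was 21500000 to 22500000 reads or fragments in HCD libraries and 21200000 to 21600000 in CD libraries. It rests on annotated transcript lengths and on counting the smallest value of a low gene as 1 read, so only its order is firm. Transcripts of surface proteins that the gate excludes were abundant. Cd34 had 449, 478 and 448 FPKM in HCD replicates 1 to 3, against 462, 488 and 462 FPKM in CD replicates 1 to 3, and Flt3, which encodes CD135, lay at 99.7 to 107 FPKM in HCD against 112 to 115 FPKM in CD. Surface protein was not measured. The libraries are therefore called the libraries labelled LT-HSC. HCD replicate 2 stood apart from the other HCD libraries in several members, and values without it are given beside these.

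Of the 17 member genes of lumenal chaperones, lectin chaperones and isomerases, 9 fell in the HCD libraries and 0 rose. None of the member genes of stress sensing or degradation passed the test, and 2 of the 6 translocation members, both subunits of the translocon-associated complex, rose. Of the 34 members, 33 reached the filter of at least 1 FPKM in at least 3 libraries. The exception was Derl3, a derlin gene of ER-associated degradation, at 0.941, 1.17 and 0.717 FPKM in HCD and 0.714, 0.968 and 0.969 FPKM in CD. In a test across 10676 genes (limma on log2(FPKM + 1), Benjamini-Hochberg adjusted p under 0.05), 9 members fell and 2 rose under HCD, against 7.66% lower and 6.28% higher among all tested genes (13.9% in either direction). The 9 were Hsp90b1, Hyou1, Sdf2l1, Creld2, Canx, Pdia6, Pdia4, Dnajb11 and Manf, and the 2 were Ssr3 and Ssr2. Exons of 13 members overlap an exon of another gene, 12 of them on the opposite strand, among them Hsp90b1, Pdia6, Manf and Ssr2. With the use of strand in counting not stated, their values may hold reads of the partner. Exons of Hsp90b1, Manf and Pdia4 overlap another gene on the same strand, which counting by strand would not resolve. Every HCD library lay below every CD library in 11 members (background 22.7% of tested genes) and above in 4 (background 15%).

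The changes were modest in size, from -0.43 for Hsp90b1 to 0.19 for Ssr2 on the log2 scale. The median over the 33 tested members was -0.05 beside -0.03 over all tested genes. Summed over all members, the level was 3021, 3096 and 3010 FPKM in HCD and 3202, 3211 and 3189 FPKM in CD. In bulk libraries, fewer cells with a transcript and less transcript per cell cannot be told apart, here or in any value that follows.

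**Figure D1:**
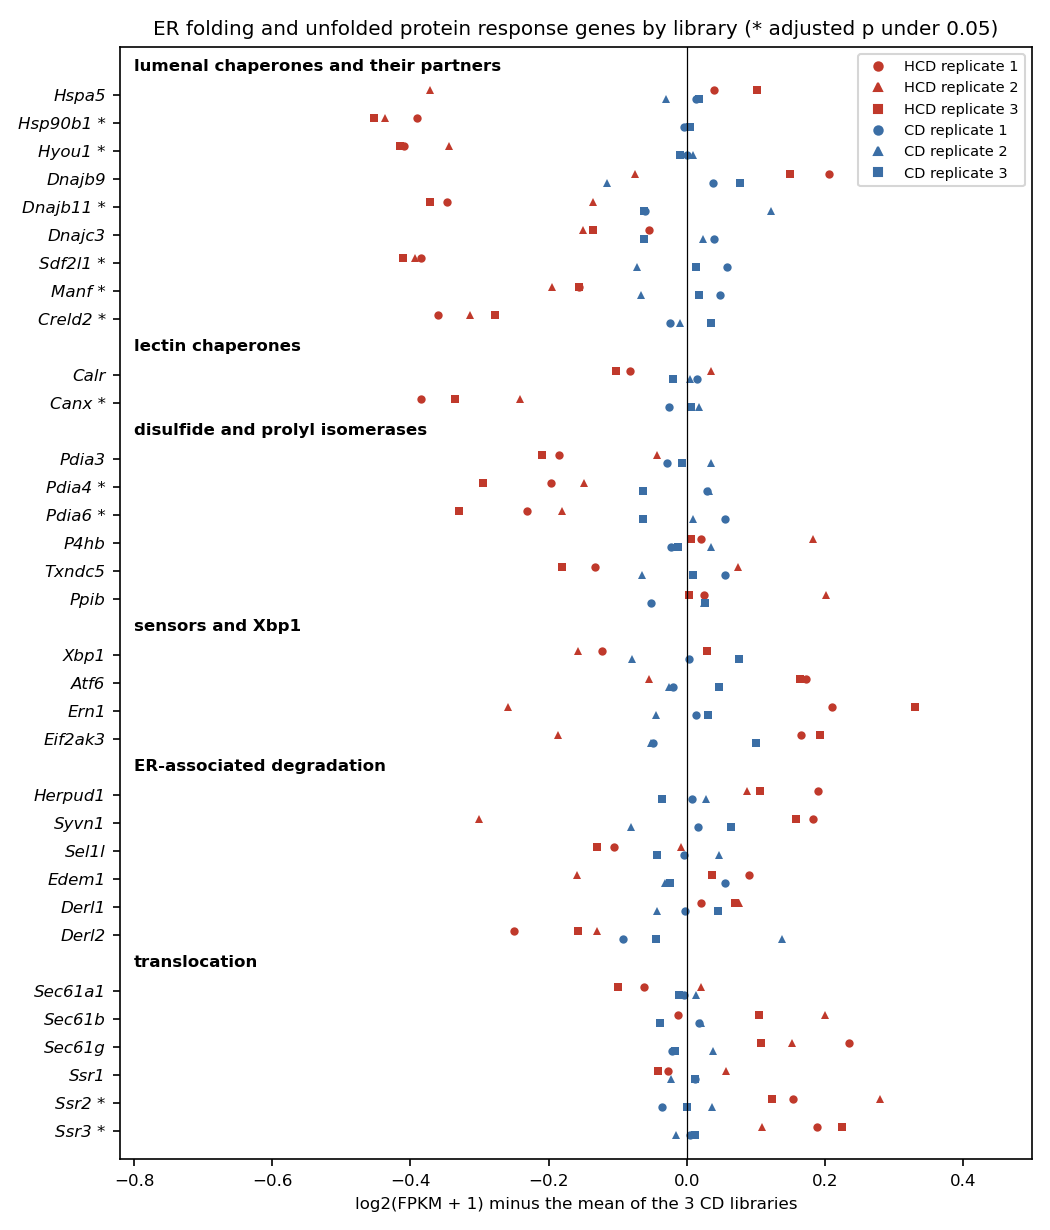
Level of each of the 33 tested members in each library, as log2(FPKM + 1) minus the mean of the 3 CD libraries, with HCD in red above CD in blue for each gene and genes grouped by role; asterisks mark an adjusted p under 0.05. The HCD points of Hsp90b1, Hyou1, Sdf2l1, Creld2 and Canx lie left of all CD points, those of Ssr2 and Ssr3 lie right, and HCD replicate 2 (triangles) lies apart in Hspa5, Ern1 and Syvn1.

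The chaperones of the ER lumen and their partners held most of the falls, with 6 of 9 lower and 0 higher (background 7.66% and 6.28%). Their median log2 change was -0.28, against -0.03 over all tested genes. Hsp90b1 encodes GRP94, the HSP90 of the ER that folds integrins and Toll-like receptors (chromosome 10, 86690209 to 86705509, GRCm38). It had 183, 177 and 175 FPKM in HCD replicates 1, 2 and 3, against 239, 239 and 240 FPKM in CD replicates 1, 2 and 3. The groups were far apart and each was tight, with means of 178 ± 4.08 FPKM in HCD and 240 ± 0.71 FPKM in CD (SD, n = 3 each). The log2 change was -0.43 with a standard error of 0.041 (limma adjusted p = 0.00077).

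Hspa5 encodes BiP, the HSP70 of the ER that holds the stress sensors inactive (chromosome 2, 34771970 to 34777547). It had 331, 249 and 346 FPKM in HCD, against 325, 315 and 326 FPKM in CD. HCD replicate 2 was the lowest of all libraries and the other HCD libraries were the highest, so the groups overlapped. The log2 change was -0.08, with a 95% confidence interval from -0.33 to 0.17 (adjusted p = 0.669), and 0.07 without HCD replicate 2 (adjusted p = 0.131). After quantile normalization of all 6 libraries it was -0.22 (adjusted p = 0.161). The ratio of Hsp90b1 to Hspa5 within a library was 0.552, 0.711 and 0.506 in HCD and 0.735, 0.759 and 0.737 in CD. Scaling by 1 factor per library leaves this ratio as it is, but quantile normalization can change it. All HCD ratios were below all CD ratios, and a two-sided exact permutation test gave p = 0.1, the smallest that 3 against 3 libraries allow. The ratio of Hyou1 to Hspa5 was 0.108, 0.151 and 0.103 in HCD and 0.148, 0.153 and 0.146 in CD, and it overlapped through HCD replicate 2 (two-sided exact permutation p = 0.3). In all 5 ratios between members were computed, each chosen after its values were seen.

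Among the BiP partners, Hyou1, the gene of the large HSP70-related chaperone GRP170 that also exchanges nucleotide on BiP, had 35.9, 37.6 and 35.7 FPKM in HCD, against 48.0, 48.2 and 47.6 FPKM in CD (log2 change -0.39 ± 0.044 SE, adjusted p = 0.0015). Sdf2l1, whose product joins the ER co-chaperone DNAJB11, had 38.1, 37.9 and 37.4 FPKM in HCD, against 52.1, 47.6 and 50.5 FPKM in CD (log2 change -0.40 ± 0.048, adjusted p = 0.00205). In both genes each HCD library was below each CD library by more than the spread within a group. Creld2, the gene of a secreted ER stress-inducible protein, had 30.9, 31.9 and 32.8 FPKM in HCD, against 39.2, 39.6 and 40.9 FPKM in CD (log2 change -0.32 ± 0.047, adjusted p = 0.00479). These values too did not overlap between diets.

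Dnajb11, which encodes the J-domain co-chaperone that delivers unfolded chains to BiP, had 27.1, 31.6 and 26.7 FPKM in HCD, against 33.3, 37.9 and 33.3 FPKM in CD (adjusted p = 0.0464). Replicate 2 was the highest library in either group. Manf, which encodes a secreted ER protein induced by stress, had 43.6, 42.4 and 43.6 FPKM in HCD, against 50.3, 46.4 and 49.3 FPKM in CD (adjusted p = 0.0479). The other J-domain partners did not pass. Dnajb9 averaged 27.4 ± 2.84 FPKM in HCD and 25.5 ± 1.85 FPKM in CD (SD, n = 3 each), and Dnajc3 25.9 ± 0.965 FPKM in HCD and 28.1 ± 1.09 FPKM in CD. DNAJB9 represses IRE1 through BiP, and DNAJC3 is also known as a PERK inhibitor. Neither passed the test, with adjusted p of 0.479 for Dnajb9 and 0.187 for Dnajc3. Without HCD replicate 2 the log2 change of Dnajb9 was 0.18 (adjusted p = 0.0647).

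**Figure D2:**
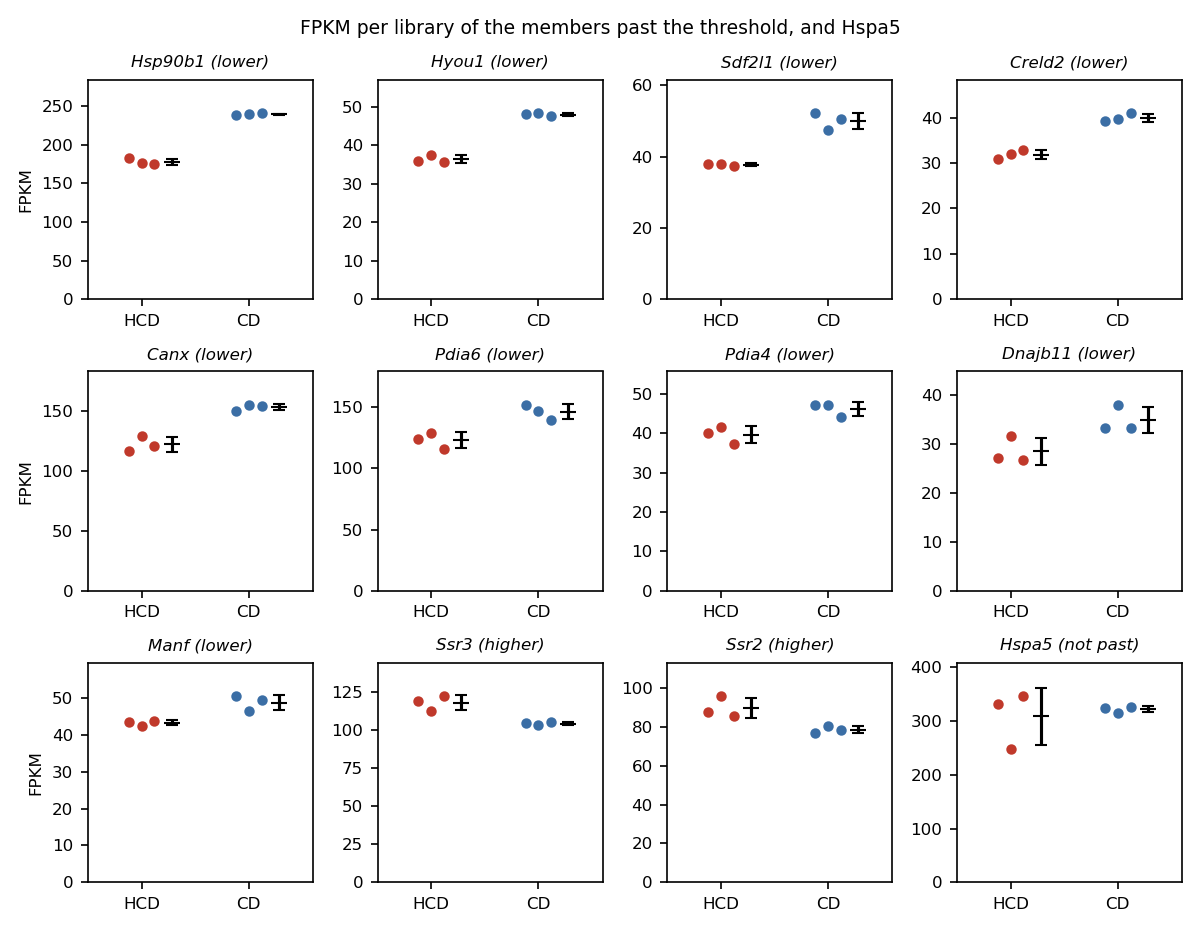
FPKM per library for the 9 members that fell, the 2 that rose, and Hspa5, with HCD left and CD right in each panel, a point per library and the mean with its SD beside the points; axes start at 0. Hsp90b1 shows the widest gap, 178 against 240 FPKM, and the HCD points of Hspa5 span 249 to 346 FPKM.

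The promoters of these genes are where the response acts, and they are shown because members that fell and members that did not carry the same element. The ER stress response element (ERSE) has the letters CCAAT, then 9 bases of any kind, then CCACG; NF-Y binds CCAAT and ATF6 or XBP1 binds CCACG. Both strands were searched in the RefSeq promoter table (GRCm38.p6, 250 bases before to 50 after each start), which matched 28 of the 34 members. The names without an entry were Hyou1, Manf, Atf6, Derl1, Sec61a1 and Ssr2. An exact ERSE was found in 9 of the 28 matched members (32.1%), against 0.137% of the 27025 genes in the table. Members were chosen as known genes of the response, so this difference is a description. Of the 9 members with an ERSE, 8 were tested and 4 fell, and of the 19 with an entry and no ERSE, 3 fell and 1 rose. Among all tested genes 7.66% fell and 6.28% rose. The 10 sites, read from CCAAT to CCACG with CCAAT and CCACG in capitals, were as follows.
Hsp90b1 distal: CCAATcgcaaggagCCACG
Hsp90b1 proximal: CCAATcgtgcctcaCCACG
Creld2: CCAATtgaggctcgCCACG
Canx: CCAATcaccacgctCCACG
Pdia6: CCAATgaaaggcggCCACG
Hspa5: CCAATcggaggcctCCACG
Calr: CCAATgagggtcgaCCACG
Dnajc3: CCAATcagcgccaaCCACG
Syvn1: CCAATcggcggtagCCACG
Derl3: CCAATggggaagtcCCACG

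The spacers of 9 bases differed between genes but were alike in composition, with 6 or 7 of the 9 bases G or C. In 6 sites CCAAT came first in the direction of the gene, and in 4 sites CCACG did. The last base lay between 26 (Syvn1) and 194 (Hsp90b1 distal) bases before the RefSeq start. The gene positions given with the levels are from GENCODE and can begin elsewhere. That of Hspa5 begins at 34771970, so its site at 34772025 to 34772043 lies inside the GENCODE gene. The 250 bases before the RefSeq start follow for the 4 members with an ERSE that fell, and for Hspa5, which was added after its values were seen. CCAAT and CCACG are in capitals and each sequence is on the strand of its gene, so that a site in the other direction reads CGTGG to ATTGG.
Hsp90b1 (chr10:86705445-86705694, minus strand): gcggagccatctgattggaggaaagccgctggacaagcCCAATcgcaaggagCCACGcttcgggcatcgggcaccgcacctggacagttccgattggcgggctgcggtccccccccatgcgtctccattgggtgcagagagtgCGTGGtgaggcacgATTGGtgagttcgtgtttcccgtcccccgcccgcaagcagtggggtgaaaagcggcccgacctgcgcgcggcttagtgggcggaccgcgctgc
Creld2 (chr15:88819396-88819645, plus strand): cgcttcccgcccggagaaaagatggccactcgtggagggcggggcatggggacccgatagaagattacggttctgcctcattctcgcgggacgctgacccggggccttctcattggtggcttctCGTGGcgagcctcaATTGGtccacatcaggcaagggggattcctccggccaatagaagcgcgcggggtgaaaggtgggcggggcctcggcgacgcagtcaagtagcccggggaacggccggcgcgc
Canx (chr11:50325674-50325923, minus strand): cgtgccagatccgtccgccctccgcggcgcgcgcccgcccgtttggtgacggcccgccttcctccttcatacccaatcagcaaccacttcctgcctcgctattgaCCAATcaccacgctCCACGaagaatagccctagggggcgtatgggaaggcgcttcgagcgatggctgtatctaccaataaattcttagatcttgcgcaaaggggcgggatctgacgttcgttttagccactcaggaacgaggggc
Pdia6 (chr12:17266339-17266588, plus strand): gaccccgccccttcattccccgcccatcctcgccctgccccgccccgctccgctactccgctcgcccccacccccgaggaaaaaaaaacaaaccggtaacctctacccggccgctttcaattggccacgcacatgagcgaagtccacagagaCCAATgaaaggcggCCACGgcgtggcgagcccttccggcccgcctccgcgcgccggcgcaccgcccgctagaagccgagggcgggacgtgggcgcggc
Hspa5 (chr2:34771840-34772089, plus strand): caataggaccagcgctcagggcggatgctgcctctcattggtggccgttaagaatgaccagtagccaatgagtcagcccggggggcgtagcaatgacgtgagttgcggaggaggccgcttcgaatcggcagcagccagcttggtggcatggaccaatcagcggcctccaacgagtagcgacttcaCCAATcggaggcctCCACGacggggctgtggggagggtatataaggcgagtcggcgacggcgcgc

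Other elements were rare among the members. The related ERSE-II, which is ATTGG, 1 base of any kind and CCACG, was found in Dnajb11 and Herpud1, 2 of the 28 matched members (7.14%), against 0.0444% of all genes in the table. The unfolded protein response element TGACGTGG was found in 1 member, Txndc5 (3.57%, against 0.714% of all genes). TGATGNAA, an element of ATF4, the transcription factor downstream of PERK, was found in Txndc5 and Herpud1 (7.14%, against 4.51%). A missing match says only that these letters are not in the window.

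The lectin chaperones, calnexin and calreticulin, hold newly glycosylated chains in the same folding cycle, and 1 of the 2 genes fell (background 7.66% lower). Canx, the membrane-bound calnexin (chromosome 11, 50293961 to 50325673), had 117, 129 and 121 FPKM in HCD, against 151, 155 and 154 FPKM in CD (log2 change -0.32 ± 0.048 SE, adjusted p = 0.00532). Calr, the soluble calreticulin, was the most abundant member and above 99.1% of tested genes, at 627, 681 and 619 FPKM in HCD, against 671, 666 and 655 FPKM in CD. Calr overlapped between diets through HCD replicate 2 (adjusted p = 0.559), and without that library its log2 change was -0.09 (adjusted p = 0.031). After quantile normalization, with all 6 libraries, the change of Calr was -0.20 and passed (adjusted p = 0.0034), so the call depends on the scaling. The ratio of Canx to Calr was 0.187, 0.190 and 0.196 in HCD and 0.224, 0.233 and 0.235 in CD. These ratios did not overlap (two-sided exact permutation p = 0.1, the smallest possible), and were chosen after the values were seen.

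The glucosidases that trim glycans for this cycle are in the list of N-glycosylation genes, of which 3 of 20 tested fell and 0 rose (background 7.66% lower). The fallers numbered 5 without HCD replicate 2 (background 14.1% lower) and 1 without each CD replicate in turn (background 1.7% to 2.3%). Mogs, the glucosidase that removes the outer glucose, averaged 55.1 ± 1.06 FPKM in HCD and 66.6 ± 0.479 FPKM in CD (SD, n = 3 each; adjusted p = 0.00537). Ganab, the catalytic subunit of the next glucosidase, averaged 65.9 ± 1.03 FPKM in HCD and 76.7 ± 0.918 FPKM in CD (adjusted p = 0.0112). Alg2, a mannosyltransferase gene of glycan assembly, was the other faller (adjusted p = 0.0338). Uggt1, the folding sensor that returns chains to the cycle, averaged 18.9 FPKM in HCD and 20.6 FPKM in CD without passing (adjusted p = 0.139), and Prkcsh, the partner subunit of Ganab, averaged 72.9 FPKM in HCD and 69.3 FPKM in CD (adjusted p = 0.303).

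Among the disulfide and prolyl isomerases 2 of 6 fell and 0 rose (background 7.66% lower and 6.28% higher). Pdia6, an oxidoreductase that acts with BiP and on IRE1, had 124, 129 and 116 FPKM in HCD, against 152, 147 and 140 FPKM in CD (log2 change -0.25 ± 0.054 SE, adjusted p = 0.0199). Pdia4, the isomerase ERp72, had 40.1, 41.4 and 37.3 FPKM in HCD, against 47.0, 47.1 and 44.0 FPKM in CD (adjusted p = 0.0357). Neither overlapped between diets. Pdia3, the isomerase that works with calnexin and calreticulin, had 190, 209 and 187 FPKM in HCD, against 212, 221 and 215 FPKM in CD. It did not overlap either, but missed the threshold (adjusted p = 0.106) and passed without HCD replicate 2 (adjusted p = 0.00226) and, with all libraries, after quantile normalization (log2 change -0.18, adjusted p = 0.0121). P4hb, the abundant classical isomerase, averaged 233 ± 16.2 FPKM in HCD and 221 ± 4.83 FPKM in CD (SD, n = 3 each; adjusted p = 0.428). Ppib, the prolyl isomerase cyclophilin B, averaged 231 ± 17.8 FPKM in HCD and 218 ± 6.65 FPKM in CD (adjusted p = 0.421). Txndc5, another thioredoxin-domain isomerase, averaged 40.2 FPKM in HCD and 42.4 FPKM in CD (adjusted p = 0.482, and 0.0392 without HCD replicate 2).

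Neither the sensor genes nor Xbp1 passed the test (0 of 4 higher and 0 of 4 lower by limma, and 0 at an unadjusted p under 0.05). Among all tested genes 6.28% were higher and 7.66% lower, and 3304 of 10676 had an unadjusted limma p under 0.05. At these shares 0 calls in 4 genes says little. Xbp1, whose mRNA IRE1 splices into the active form, had 31.2, 30.4 and 34.7 FPKM in HCD, against 34.1, 32.1 and 35.9 FPKM in CD, a log2 change of -0.08 with a 95% interval from -0.23 to 0.07. Spliced and unspliced forms cannot be told apart in gene-level FPKM. Atf6, the sensor that is cut in the Golgi to a transcription factor, had 11.7, 9.84 and 11.6 FPKM in HCD, against 10.1, 10.1 and 10.6 FPKM in CD (interval -0.08 to 0.27). Eif2ak3, the PERK kinase, had 6.80, 5.11 and 6.96 FPKM in HCD, against 5.73, 5.71 and 6.46 FPKM in CD (interval -0.20 to 0.31). In both genes HCD replicates 1 and 3 were above every CD library and HCD replicate 2 was below. Without HCD replicate 2 the log2 change was 0.17 for Atf6 (adjusted p = 0.0656) and 0.18 for Eif2ak3 (adjusted p = 0.12), and the median over these 4 genes was 0.17, against 0.08 with it.

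Ern1, which encodes the sensor IRE1 (chromosome 11, 106394650 to 106487852), showed the same split most widely, with 22.3, 15.8 and 24.3 FPKM in HCD, against 19.3, 18.5 and 19.6 FPKM in CD. Its log2 change was 0.09 with an interval from -0.21 to 0.40 (adjusted p = 0.664), and without HCD replicate 2 it was 0.27 (adjusted p = 0.0079). Immediate early genes, whose transcripts are quickly induced by stimuli and by cell isolation, were as a sum also lower in HCD replicate 2 than in HCD replicates 1 and 3. Unlike Ern1, their sum in HCD replicate 2 stayed above every CD library. All 8 on that list rose, where 6.28% of all tested genes were higher. Their summed level was 5198, 4243 and 5263 FPKM in HCD and 2220, 2099 and 2231 FPKM in CD. Transcript length moved with the gap between HCD replicate 2 and the other HCD libraries as well. Across the 10354 tested genes with a length, HCD replicate 2 minus the mean of HCD replicates 1 and 3 had a Spearman rho of -0.26 with length. Over the 33 members this rho was -0.33. The change between diets had a rho of -0.26 with length over all these genes and -0.03 over the members. Without HCD replicate 2 these were -0.16 and 0.12. All are descriptions over genes of the same libraries. On the log2 scale, HCD replicate 2 minus the mean of HCD replicates 1 and 3 was -0.53 for Ern1 (6946 bp) and -0.22 for Atf6 (7246 bp). Of the other longest members, Ssr1 (9333 bp) was at 0.09, Sel1l (5922 bp) at 0.11, Edem1 (5817 bp) at -0.22 and Dnajc3 (5141 bp) at -0.05. Syvn1 (3311.5 bp) and Hspa5 (3142.5 bp), above the median length of 2812 bp over tested genes, were at -0.47 and -0.44. Eif2ak3 was at -0.37. Its length of 2720 bp is a median over annotated transcripts, so it can be below that of the longest form. The part of the immediate early response or of length in the sensor values was not tested.

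The PERK arm, from a list of genes outside the members, had 3 risers and 1 faller of 13 tested (background 6.28% higher and 7.66% lower). The risers numbered 5 without HCD replicate 2 (background 11.3% higher). They numbered 1 without HCD replicate 1 (3.4%), HCD replicate 3 (4.86%), CD replicate 1 (2.42%) or CD replicate 2 (2.9%), and 0 without CD replicate 3 (2.71%). With no filter on level there was 1 (3.45%), and with the replicate block 4 (7.88%). The faller was lost without HCD replicate 1 or any CD replicate (background 1.7% to 3.26% lower), and there were 2 without HCD replicate 2 (14.1%). Ppp1r15a, the phosphatase subunit that reverses PERK signalling and is itself induced early, had 177, 112 and 174 FPKM in HCD, against 93.4, 90.4 and 96.0 FPKM in CD (adjusted p = 0.0221). The stress genes Nupr1 (5.74 against 3.82 FPKM, adjusted p = 0.0111) and Sesn2 (5.10 against 3.82 FPKM, adjusted p = 0.0441) were the other risers, each given as the HCD mean against the CD mean. Eif2s1, the translation factor subunit that PERK phosphorylates, fell to 43.6 ± 1.91 FPKM in HCD, against 51.5 ± 0.982 FPKM in CD (SD, n = 3 each; adjusted p = 0.0152). Atf4 had 141, 100 and 152 FPKM in HCD, against 111, 106 and 114 FPKM in CD. Its HCD values lay on both sides of the CD values, and neither Atf4 (adjusted p = 0.292) nor Ddit3, the CHOP gene (adjusted p = 0.155), passed; both were named after their values were seen. The other genes of sensing and sensor processing had 0 risers and 1 faller of 10 tested, Wfs1, an ER membrane gene close to the filter at 0.971 FPKM in HCD and 1.59 FPKM in CD (adjusted p = 0.0416). It reached the filter in all 3 CD libraries and 1 HCD library. The list had 0 fallers with no filter (background 3.92% lower), with the length trend removed (5.28%) and without each library in turn (1.7% to 14.1%). It had 2 with the replicate block (9.67%). A filter of 5 FPKM leaves Wfs1 out.

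No tested member of ER-associated degradation passed (0 of 6 higher and 0 of 6 lower by limma, and 1, Herpud1, at an unadjusted p under 0.05). With 6.28% higher and 7.66% lower among all tested genes, 0 calls in 6 genes says little. Herpud1, which gathers the degradation complex and is itself a target of the response, had 37.9, 35.2 and 35.7 FPKM in HCD, against 33.3, 33.8 and 32.2 FPKM in CD. All HCD libraries were above all CD libraries, but the adjusted p was 0.119 (0.0446 without HCD replicate 2). Syvn1, the ubiquitin ligase HRD1, had 11.9, 8.25 and 11.7 FPKM in HCD, against 10.5, 9.77 and 10.9 FPKM in CD. It split within HCD as the sensors did, and without HCD replicate 2 its log2 change was 0.17 (adjusted p = 0.0831). Sel1l, the partner of HRD1, averaged 15.9 FPKM in HCD and 16.9 FPKM in CD (adjusted p = 0.385), and Edem1, which selects mannose-trimmed chains, averaged 11.3 FPKM in both. The derlin genes of the exit channel, Derl1 (32.6 FPKM in HCD, 31.3 FPKM in CD) and Derl2 (6.83 FPKM in HCD, 7.88 FPKM in CD), had adjusted p of 0.459 and 0.183.

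Among 24 other degradation genes 2 rose and 1 fell (background 6.28% and 7.66%). The risers numbered 4 without HCD replicate 2 (background 11.3% higher), and 1 without HCD replicate 3 (4.86%) or with no filter (3.45%). There were 0 without HCD replicate 1 (3.4%) or any CD replicate (2.42% to 2.9%). The faller was lost with the length trend removed (background 5.28% lower) and without each library other than HCD replicate 2 (1.7% to 5.55%). The risers were genes of lectins that bring glycoproteins to HRD1. Os9 averaged 73.8 ± 3.89 FPKM in HCD and 63.7 ± 1.57 FPKM in CD, and Erlec1 5.60 ± 0.189 FPKM in HCD and 4.39 ± 0.235 FPKM in CD (SD, n = 3 each; adjusted p = 0.0297 and 0.0366). The faller was Ubxn4, an ER membrane adaptor of the ATPase that pulls chains out, at 30.6 ± 1.47 FPKM in HCD and 36.5 ± 1.67 FPKM in CD (adjusted p = 0.0225). The direction of the degradation list was thus mixed, and its median log2 change was 0.01.

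Translocation was the role in which members rose, with 2 of 6 higher and 0 lower and a median log2 change of 0.13 (background 6.28% higher). The count of risers was 0 by limma with no filter (background 3.45% higher) and without HCD replicate 1 (3.4%) or any CD replicate (2.42% to 2.9%). Ssr2 and Ssr3 encode subunits of the translocon-associated protein complex, which sits beside SEC61 and helps some chains to enter. Ssr3 (chromosome 3, 65379655 to 65392623) had 119, 113 and 122 FPKM in HCD, against 105, 103 and 105 FPKM in CD (log2 change 0.17 ± 0.045 SE, adjusted p = 0.0362). Ssr2 (chromosome 3, 88575876 to 88588419) had 87.5, 95.5 and 85.7 FPKM in HCD, against 76.6, 80.6 and 78.5 FPKM in CD (log2 change 0.19 ± 0.052, adjusted p = 0.0484). Neither overlapped between diets, and the fold changes were 1.13 for Ssr3 and 1.14 for Ssr2. Ssr4, the remaining subunit and not a member, was the 1 riser among 26 other genes of translocation, signal recognition and signal peptidase, of which 0 fell, at 118, 127 and 118 FPKM in HCD, against 94.1, 104 and 106 FPKM in CD (adjusted p = 0.0219). Ssr1, the calcium-binding subunit, did not follow, at 31.2, 33.1 and 30.9 FPKM in HCD, against 32.1, 31.3 and 32.1 FPKM in CD (interval of the log2 change -0.11 to 0.11).

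The channel itself was less clear. Sec61g, the small gamma subunit, had 55.5, 52.4 and 50.8 FPKM in HCD, against 46.3, 48.3 and 46.4 FPKM in CD. All HCD libraries were higher, with an adjusted p of 0.0569 that was 0.0418 with TMM factors, 0.0383 after quantile normalization and 0.0273 without HCD replicate 2. Sec61b averaged 155 ± 11.5 FPKM in HCD and 145 ± 3.33 FPKM in CD, and the channel-forming Sec61a1 66.9 ± 2.89 FPKM in HCD and 69.1 ± 0.622 FPKM in CD (SD, n = 3 each). The HCD and CD values of Sec61a1 overlapped (adjusted p = 0.522). Relative to Sec61a1 in the same library, Ssr2 stood at 1.32, 1.36 and 1.33 in HCD and 1.11, 1.15 and 1.14 in CD, and Sec61g at 0.838, 0.747 and 0.787 in HCD and 0.671, 0.692 and 0.677 in CD. Neither ratio overlapped between diets (two-sided exact permutation p = 0.1 for each, the smallest possible). Sec61b and Sec61g have near-identical transcripts of other annotated genes (at least 95% identity over at least 50% of a transcript), so their values are uncertain by whatever reads those copies took.

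**Figure D3:**
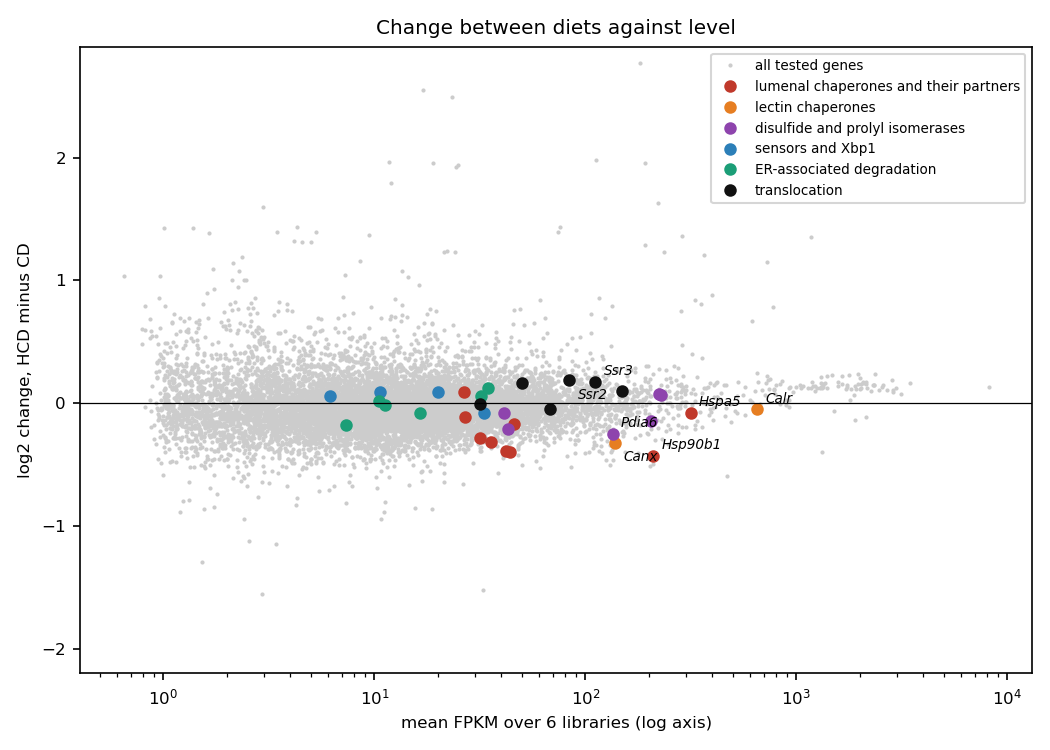
Log2 change (HCD minus CD) against the mean FPKM over the 6 libraries (log axis) for the 10676 tested genes in grey and the 33 tested members coloured by role. Abundant members lie on both sides of 0, with Hsp90b1 at -0.43 and Ssr3 at 0.17, and all members lie well inside the range of all genes.

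The remaining lists of the secretory pathway held few calls, and each of those calls was lost without HCD replicate 1 and without each CD replicate. Ssr4 was lost there as well. Of 26 other ER folding genes tested, 0 rose and 1 fell, Cnpy3, a co-chaperone of GRP94 for Toll-like receptors, at 50.6, 51.8 and 51.1 FPKM in HCD, against 56.6, 60.6 and 56.3 FPKM in CD (adjusted p = 0.0396). Its groups did not overlap, as was the case for Hsp90b1. In the list of COPII export and KDEL retrieval 0 rose and 1 of 20 fell, Sec24b, a cargo adaptor of export vesicles (16.1 ± 0.268 FPKM in HCD and 19.0 ± 0.885 FPKM in CD; SD, n = 3 each; adjusted p = 0.0304). In ER calcium handling 1 of 12 rose and 0 fell, the calcium pump gene Atp2a3 (99.0 ± 5.82 FPKM in HCD and 86.8 ± 1.79 FPKM in CD; adjusted p = 0.0466). These shares stand near the background of 7.66% lower and 6.28% higher. The call of Cnpy3 was also lost with TMM factors, with no filter and without HCD replicate 3. Sec24b lost its call with TMM factors, quantile normalization, the length trend removed and without HCD replicate 3, and Atp2a3 with no filter.

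Among cytosolic and mitochondrial heat shock genes, a list chosen for comparison, 8 of 14 tested fell and 1 rose (background 7.66% lower and 6.28% higher). The list had a median log2 change of -0.39, against -0.03 over all tested genes. Hsph1, an HSP110 gene, had 15.8, 17.0 and 16.7 FPKM in HCD, against 48.5, 49.5 and 49.6 FPKM in CD (adjusted p = 2.05e-06). Dnaja1, an HSP40 gene, averaged 69.9 ± 1.28 FPKM in HCD and 101 ± 1.03 FPKM in CD (SD, n = 3 each; adjusted p = 0.000279), and Hspd1, the mitochondrial HSP60 gene, 172 ± 5.86 FPKM in HCD and 244 ± 5.71 FPKM in CD (adjusted p = 0.000638). The fallers numbered 7 to 9 over the 13 alternatives. Among all tested genes 1.7% were lower without CD replicate 1 and 14.1% without HCD replicate 2. The riser was Dnajb1 (log2 change 0.22), lost with no filter and without each library other than HCD replicate 2, and Hsf1, which encodes the transcription factor of the heat shock response, did not pass (adjusted p = 0.296). Both were named after their values were seen, and whether this list differs from the ER list was not tested.

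**Figure D4:**
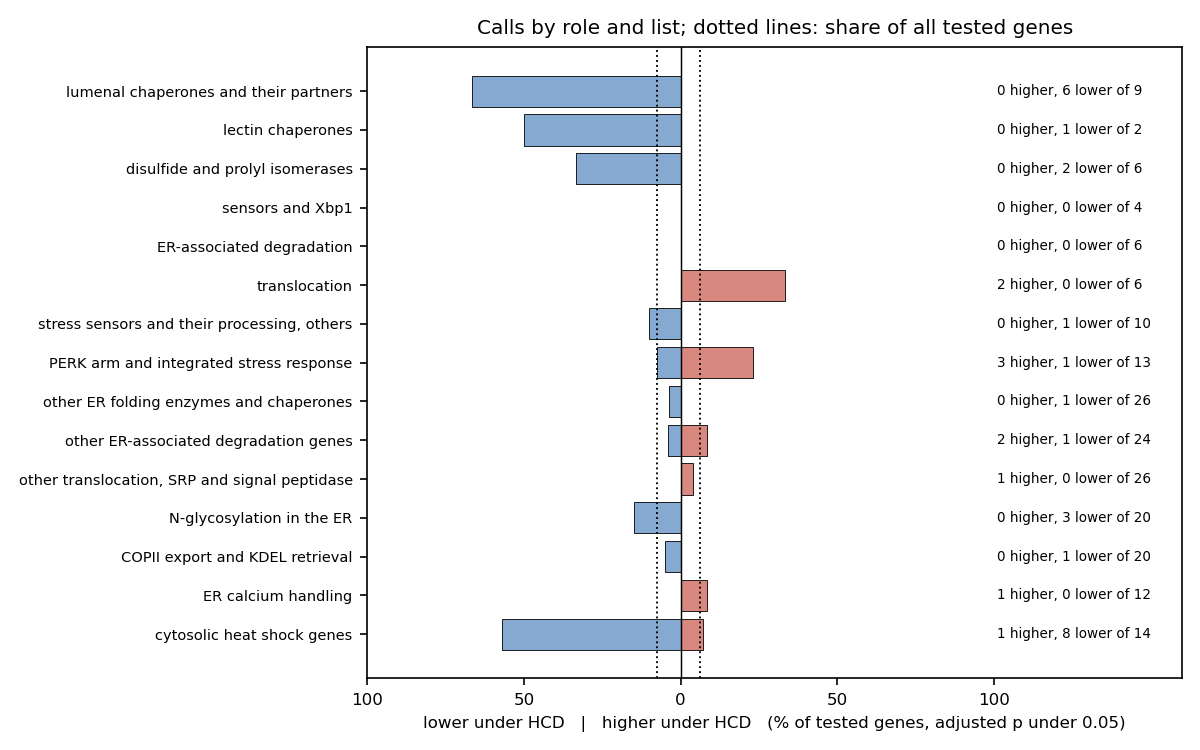
Share of tested genes lower (left) and higher (right) under HCD at an adjusted p under 0.05, in percent, for the member roles and the other lists, with counts at the right; dotted lines mark the 7.66% and 6.28% of all tested genes. Lumenal chaperones (6 lower of 9) and cytosolic heat shock genes (8 lower of 14) reach furthest to the left, and translocation (2 higher of 6) to the right.

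Markers of other cells moved between diets and stand beside these falls and rises. Among all tested genes 6.28% were higher and 7.66% lower. All 7 genes of granulocyte and monocyte progenitors rose, with summed levels of 1654 to 1820 FPKM in HCD and 879 to 908 FPKM in CD. The mature neutrophil list summed to 40.0 to 48.8 FPKM in HCD and 12.5 to 12.7 FPKM in CD, with 5 of 5 tested genes higher, of 8 listed. Plasma cells are rich in ER, and their list with B cells summed to 136 to 155 FPKM in HCD and 71.2 to 82.1 FPKM in CD, with 2 higher and 1 lower of 5 tested. Most of that sum was the joining chain gene Jchain, at 101, 118 and 105 FPKM in HCD, against 38.3, 43.5 and 39.1 FPKM in CD, while Prdm1 and Irf4 were under 0.33 FPKM in every library. The LT-HSC list had 1 higher and 3 lower of 8 tested, at 301 to 305 FPKM in HCD and 322 to 325 FPKM in CD, and the multipotent progenitor list 0 higher and 0 lower of 3. The part of these cells in the values of the ER genes was not tested.

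The remaining marker lists were low or small, and the background was again 6.28% higher and 7.66% lower. The macrophage list had 2 higher and 2 lower of 5 tested (25.5 to 29.6 FPKM in HCD and 26.4 to 27.3 FPKM in CD, summed), and the erythroid list 0 higher and 1 lower of 3 (8.37 to 9.06 FPKM in HCD and 9.39 to 11.99 FPKM in CD), with Hba-a2 listed at 0 in all HCD libraries. Megakaryocyte and platelet genes had 3 higher and 0 lower of 3 tested (78.2 to 92.5 FPKM in HCD and 46.9 to 51.6 FPKM in CD). T and NK cell genes had 1 higher and 1 lower of 2 tested, with Cd3e listed at 0 in every library and nearly all of the sum (128 to 149 FPKM in HCD and 105 to 109 FPKM in CD) in Nkg7. Stroma and endothelium had 0 higher and 1 lower of 1 tested (8.55 to 9.35 FPKM in HCD and 11.9 to 12.7 FPKM in CD).

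Of the 11 calls among the members, 5 held in all 13 alternative settings, including each left-out library. They were the falls of Hsp90b1 (adjusted p up to 0.0107), Hyou1 (0.0153), Sdf2l1 (0.0189), Creld2 (0.0338) and Canx (0.0364). The calls of Pdia6, Pdia4, Dnajb11 and Manf were lost with TMM factors, which left 5 members lower and 3 higher (background 5.63% lower and 7.4% higher). Their log2 changes were then -0.22, -0.18, -0.25 and -0.14, against -0.25, -0.21, -0.28 and -0.17 as reported. Those of Manf, Pdia4 and Ssr2 were lost with the trend against transcript length removed, which left 7 lower and 1 higher (background 5.28% and 7.08%), with log2 changes of -0.16, -0.20 and 0.16. After quantile normalization 10 members were lower and 3 higher (background 7.77% and 7.69%), with Calr, Pdia3 and Sec61g added and Manf lost (log2 change -0.15). With no filter on level 6 members were lower and 0 higher (background 3.92% and 3.45%), and none of the 11 changed direction in any of these settings. The replicate block gave 9 lower and 2 higher (background 9.67% and 7.88%).

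Each left-out library moved the counts. Without HCD replicate 1 the members counted 5 lower and 0 higher by limma (background 3.26% and 3.4%). The count was also 5 lower and 0 higher without CD replicate 1 (1.7% and 2.42%), CD replicate 2 (2.3% and 2.9%) or CD replicate 3 (2.1% and 2.71%), and the 5 were those that held in every setting. Without HCD replicate 3 it was 6 lower, with Pdia6 added to those 5, and 1 higher, Ssr2 (5.55% and 4.86%). Without HCD replicate 2, the library that stands apart, it was 12 lower and 5 higher, where 14.1% of all tested genes were lower and 11.3% higher. The genes added there were Pdia3, Calr and Txndc5 below, and Ern1, Herpud1 and Sec61g above.

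**Figure D5:**
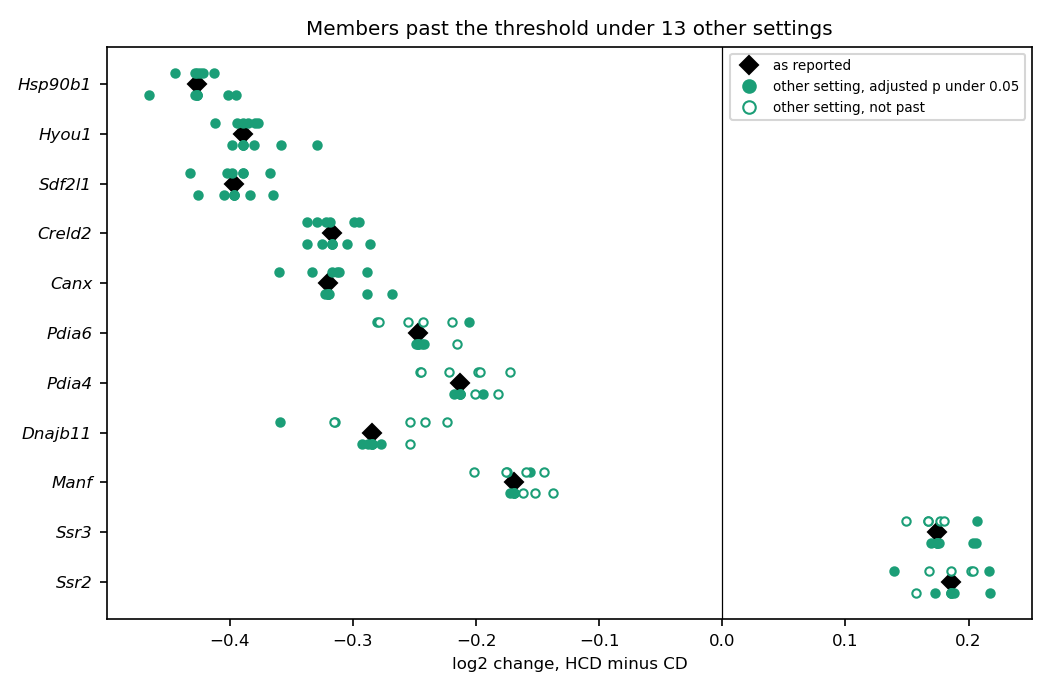
Log2 change (HCD minus CD) of the 11 members past the threshold as reported (black diamonds) and under 13 other settings (circles; above each diamond with 1 library left out, below it with another filter, scale, pseudocount, length correction or block). Circles are filled at an adjusted p under 0.05; all are filled for Hsp90b1, Hyou1, Sdf2l1, Creld2 and Canx, and none crosses 0.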

How the data were processed

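The unit of the deposited values, FPKM, was read from the numbers, as each header names only its sample. Per the labels, cells were sorted from bone marrow, RNA was taken with a micro column kit and stranded mRNA libraries were made; per the submitters' processing notes the authors used fastp, HISAT2 and StringTie with GRCm38 and mm10, with no version, annotation, filter or use of strand named. The members and all lists were chosen with earlier results of these data known. Rows with a date in place of a symbol (27 of 21878, 0.127% of FPKM) were left out. In 622 of 893 low genes (69.7%) values scaled by relative depth were whole multiples, within 0.02, of the gene's own smallest value. With the relative depths in reversed order 0% were. The depth was taken from such genes, with the smallest value counted as 1 read.

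limma 3.58.1 (R 4.3.3; mean-variance trend, robust empirical Bayes, two-sided, no covariate) was run on log2(FPKM + 1) for genes that reached 1 FPKM in 3 or more libraries. Benjamini-Hochberg adjustment ran over all tested genes with a threshold of 0.05, and the fit was first tested on simulated data. A fold change on this scale understates that of low genes. Every member is named; of other lists, up to 3 called genes with the smallest p. The alternatives were a filter of 5 FPKM or none, a pseudocount of 0.1, TMM factors, quantile normalization, removal of the length trend, a replicate block and leaving out each library. Deviations from group means correlated at 0.103, 0.292 and 0.166 for same-numbered libraries and at -0.25 to 0.098 otherwise, so the numbers were treated as pairs in the block fit; the labels do not state pairing. Positions and lengths are from GENCODE vM21 (GRCm38). A length is the median over transcripts with a CCDS tag, or the longest transcript where none has the tag. Some length was found for 97.0% of tested genes. Exons of 13 members overlap those of another gene, 12 with an opposite-strand gene (among them Hsp90b1, Pdia6, Manf and Ssr2). Those of Hsp90b1, Manf and Pdia4 overlap a gene on the same strand. Reads of the partners may not be told apart. Copies were searched with BLAST 2.17.0. Promoters are from RefSeq. The end residues of the proteins, which were to be described, were not analysed here.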

Additional observations from a re-analysis of the deposited data

How the results depend on the processing

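Of all tested genes 1488 passed the threshold, and 1873 did with the replicate block, in which 9 members fell and 2 rose and no member's call changed. Over the fits that leave out 1 library the number lay between 439 and 2707, members lower between 5 and 12, and members higher between 0 and 5. With TMM factors 5 members were lower (background 5.63%). Without a filter on level 0 members were higher by limma (background 3.45%), and with the length trend removed 1 was (background 7.08%). The median log2 change of the members, -0.050 as reported, lay between -0.061 and -0.013 in the 13 alternatives. Each move was below the SD between HCD libraries, but that SD, 0.047, was nearly as large as the median. The median over all tested genes was negative too, at -0.033 as reported and -0.0026 with the length trend removed.

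Members that did not pass as reported changed sign under some settings. With TMM factors, quantile normalization and the length trend removed, Edem1 was at 0.018, 0.024 and 0.079, and Ssr1 at 0.027, 0.0076 and 0.14; Sel1l was at 0.011 with the length trend removed. Over left-out libraries the log2 change lay from -0.17 to 0.070 for Hspa5, -0.024 to 0.27 for Ern1, -0.010 to 0.18 for Eif2ak3, -0.071 to 0.17 for Syvn1, -0.061 to 0.063 for Edem1 and -0.035 to 0.014 for Ssr1. The cause was not tested. Both depth and the spread between 3 libraries limit these values. Ern1 at 0.27 is the value without HCD replicate 2, where it passed.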
